A study of Mus musculus with 4 samples.

Results

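The regions described here are short stretches that lost CG methylation far inside genes in the cortex of mice without NSD1 in their excitatory neurons. They were chosen by 4 criteria from the authors' deposited table of differentially methylated regions. A region had to be in the CG context on chromosomes 1 to 19, to have a lower mean level in cKO than in control, to be shorter than 500 bp, and to overlap a RefSeq protein-coding gene by at least 1 bp while lying more than 2 kb from both ends of every such gene. The rule took 11412 of the 101350 regions of the table, which is 25.8% of its 44244 autosomal CG losses. DNA came from somatosensory cortex at 2.5 months. The cKO carries the genotype Nsd1Nex-cKO (2 libraries), and the control the genotype Nsd1fl/+ (2 libraries). The labels do not say whether the control also carries the Nex driver, nor whether the libraries of a group come from separate animals.

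NSD1 methylates lysine 36 of histone H3. That mark is found along gene bodies and in broad intergenic domains, and the de novo DNA methyltransferases bind it through their PWWP domains. CG methylation covers the bodies of most genes in mammalian tissue, with low levels at active promoters and enhancers. Neurons also carry methylation outside CG, largely placed after birth, which is recorded here in the CHH context (H is A, C or T). Nex (Neurod6) is active in the excitatory neurons of the cortex, and its driver deletes floxed genes in them. The libraries hold bulk tissue, so glia, vessels and interneurons are included. A change in the share of methylated cells and a change within each cell cannot be told apart. Regions of methylation give no expression, and the labelled tissue was not checked against marker genes.

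The table gives 1 mean level per group and region, with no value per library and no coverage. Depth is therefore unknown, the spread among the libraries of a group cannot be given, and none of the differences below was tested. Lower levels in cKO are what chose the regions and are given as a description. The table's number of cytosines counts both strands. In 205 CG regions lying wholly inside a promoter window of known sequence, it was at the median 2 times the number of CG dinucleotides. The counts below are therefore called CG cytosines, of which a CpG site has a pair.

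Sequence is shown for losses that fell on an alternative transcript start inside a gene, because there the bases under the loss are known. RefSeq promoter windows (build GRCm38.p6) run from 250 bases before to 50 bases after a transcript start. The 6 shown are the windows of protein-coding genes that share at least 100 bases with a loss of the largest area statistic. The area statistic is the authors' score summed over a region. Each window is written 5′ to 3′ on its own strand, and capitals mark the CG dinucleotides that lie inside the called loss.
Abl1 (chr2:31759689-31759988, + strand): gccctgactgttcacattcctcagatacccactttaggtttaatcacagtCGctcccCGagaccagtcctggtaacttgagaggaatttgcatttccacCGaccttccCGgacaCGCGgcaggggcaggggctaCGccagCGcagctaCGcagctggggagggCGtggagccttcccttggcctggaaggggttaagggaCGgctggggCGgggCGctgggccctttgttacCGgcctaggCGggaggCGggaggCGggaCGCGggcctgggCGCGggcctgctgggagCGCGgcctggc
Fam110a (chr2:151973345-151973644, - strand): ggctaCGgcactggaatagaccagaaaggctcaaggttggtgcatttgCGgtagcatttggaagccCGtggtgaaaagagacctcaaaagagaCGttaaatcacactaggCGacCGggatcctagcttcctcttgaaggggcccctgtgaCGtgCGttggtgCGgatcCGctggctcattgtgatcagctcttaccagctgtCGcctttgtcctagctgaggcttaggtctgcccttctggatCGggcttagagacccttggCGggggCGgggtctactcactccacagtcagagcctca
Shroom3 (chr5:92809132-92809431, + strand): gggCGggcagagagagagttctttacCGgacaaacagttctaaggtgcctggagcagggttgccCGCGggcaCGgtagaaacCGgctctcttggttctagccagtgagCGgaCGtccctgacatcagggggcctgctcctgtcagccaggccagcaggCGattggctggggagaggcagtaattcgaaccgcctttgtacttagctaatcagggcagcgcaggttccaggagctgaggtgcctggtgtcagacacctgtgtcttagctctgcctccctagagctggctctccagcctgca
Trpm1 (chr7:64185209-64185508, + strand): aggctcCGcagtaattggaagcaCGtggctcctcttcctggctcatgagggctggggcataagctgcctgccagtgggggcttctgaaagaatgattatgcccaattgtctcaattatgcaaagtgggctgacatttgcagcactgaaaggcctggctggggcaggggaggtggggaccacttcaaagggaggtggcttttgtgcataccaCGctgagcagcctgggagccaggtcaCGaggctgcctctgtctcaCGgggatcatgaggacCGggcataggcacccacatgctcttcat
Rgs3 (chr4:62619422-62619721, + strand): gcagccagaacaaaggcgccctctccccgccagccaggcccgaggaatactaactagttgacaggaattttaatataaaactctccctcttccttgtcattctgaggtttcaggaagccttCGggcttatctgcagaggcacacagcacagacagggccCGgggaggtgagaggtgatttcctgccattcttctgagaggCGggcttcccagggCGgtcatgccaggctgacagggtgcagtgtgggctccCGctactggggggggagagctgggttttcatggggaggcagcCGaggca
Map3k6 (chr4:133240568-133240867, + strand): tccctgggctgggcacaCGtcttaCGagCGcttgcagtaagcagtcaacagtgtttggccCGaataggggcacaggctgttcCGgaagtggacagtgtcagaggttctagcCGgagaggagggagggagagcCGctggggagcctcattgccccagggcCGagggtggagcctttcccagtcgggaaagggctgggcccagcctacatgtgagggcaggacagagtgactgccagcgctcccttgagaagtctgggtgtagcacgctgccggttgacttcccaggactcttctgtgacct

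In the authors' deposited table the loss over the Abl1 window (chr2:31759567-31760030, 67 CG cytosines) had 13.5% methylation in cKO and 33.2% in control. Abl1 encodes a tyrosine kinase transcribed from alternative first exons, and all 23 CG dinucleotides of its window lay in the loss. The loss in Fam110a (chr2:151973215-151973651, 47 CG cytosines) had 27.6% in cKO and 56.6% in control, and it covered all 14 CG dinucleotides of the window. In Shroom3, which encodes an actin-binding protein of apical constriction, the loss (chr5:92809038-92809291) had 19.02% in cKO and 42.2% in control and held 9 of the window's 12 CG dinucleotides. These 3 windows held 12 to 23 CG dinucleotides. The control levels of their losses were well below the 76.1% that was the control median of all losses deep in genes. In Trpm1, a cation channel gene of retinal bipolar cells and melanocytes, the loss (chr7:64185123-64185482) had 33.1% in cKO and 72.5% in control over a window of 6 CG dinucleotides. In Rgs3, a regulator of G protein signalling, it (chr4:62619543-62619783) had 21.8% in cKO and 59.6% in control, over a window of 9 CG dinucleotides. In Map3k6, a kinase of the MAP kinase cascade, it (chr4:133240476-133240749) had 19.3% in cKO and 49.2% in control. The Map3k6 window had 12 CG dinucleotides, as many as that of Shroom3, and its control level was below that of Fam110a. The GC box GGGCGG, searched on both strands, occurred in the windows of Abl1, Fam110a, Shroom3 and Rgs3. It occurred in 25.1% of all 5276 promoter windows deep inside genes and in 35.98% of all 31396 autosomal windows. The CCAAT box CCAAT was found in the windows of Shroom3 and Trpm1, and the TATA box TATAAA in that of Rgs3. A match is a description of the letters and not a bound site.

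In the authors' deposited table the median level of the losses deep in genes was 43.8% in cKO (quartiles 33.0 to 54.4%) and 76.1% in control (quartiles 66.0 to 84.2%). The median difference, cKO minus control, was -30.1 points, with quartiles of -34.7 and -25.7 and a range of -62.3 to -6.77. Most of these stretches were therefore methylated in control and partly methylated in cKO. The median region kept 58.1% of its control level. A level under 20% in cKO was reached by 684 regions (5.99%), and 374 (3.28%) still had at least 70% in cKO. In control 4383 regions (38.4%) had 80% or more, and 676 (5.92%) had under 50%. The regions were short, with a median of 120 bp (quartiles 84 to 190) and 9 CG cytosines (quartiles 7 to 13), and together they cover 1744 kb.

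**Figure D1:**
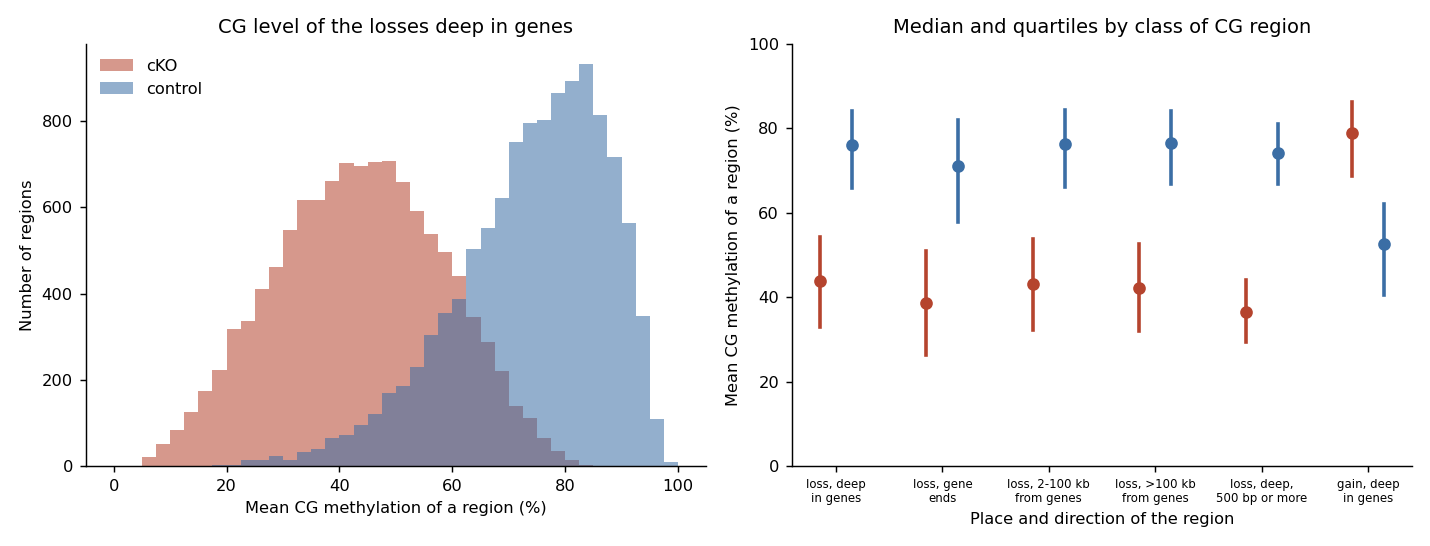
Left, number of regions (y axis) by mean CG methylation in percent (x axis) for the 11412 CG losses deep in genes, in cKO (red) and control (blue). Right, median (point) and quartiles (bar) of the level in cKO (red) and control (blue) for 6 classes of CG region. The losses deep in genes have medians of 43.8% in cKO and 76.1% in control, close to those of the losses between genes.

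Other CG losses under 500 bp had like levels. The 3015 losses within 2 kb of a gene end had medians of 38.8% in cKO and 71.1% in control, with a median difference of -29.5 points. Their control level was under 50% in 14.96% of cases, against 5.92% deep in genes. The 17939 losses outside genes and up to 100 kb from an end had medians of 43.1% in cKO and 76.4% in control (difference -31.0 points). The 9683 farther than 100 kb had 42.3% in cKO and 76.6% in control (difference -32.0 points). The 611 losses of 500 bp or more deep in genes had 36.7% in cKO and 74.1% in control. Gains of CG methylation deep in genes lay elsewhere on the scale: the 2073 under 500 bp had medians of 78.9% in cKO and 52.6% in control. Across the limits of the rule, the 12 losses of 495 to 499 bp had medians of 39.7% in cKO and 76.4% in control, and the 16 of 500 to 504 bp just outside it had 39.1% in cKO and 78.5% in control. The 31 losses 2002 to 2050 bp from a gene end had medians of 46.4% in cKO and 76.8% in control, and the 34 at 1953 to 1997 bp had 46.5% in cKO and 77.1% in control.

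Sparse regions had the larger drops. In the quartile with the fewest CG cytosines per length the median level was 40.7% in cKO and 77.4% in control (difference -34.8 points). In the densest quartile it was 46.7% in cKO and 74.8% in control (difference -25.5 points). These quartiles also differed in median length, 203 bp in the sparsest and 87 bp in the densest, and the part of length was not tested. By control level, the drop was largest in the middle of the range. Regions with 70 to 80% in control had a median of 43.4% in cKO, a difference of -31.7 points. Regions at 90% or more in control had 66.6% in cKO and a difference of -25.8 points, and those under 40% in control had 12.5% in cKO and a difference of -21.3 points. A region cannot lose more than its control level, which had a median of 34.7% in the last group. The part of this limit was not tested.

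The losses with the largest area statistic were mostly longer and denser in CG. A score summed over a region favours such regions, so this follows in part from the ranking. The first was in Gse1 (chr8:120449899-120450339), a subunit of a histone deacetylase and demethylase complex, with 29.7% in cKO and 65.8% in control over 56 CG cytosines. In Relb (chr7:19619509-19619914), an NF-kappaB subunit, 72 CG cytosines had 11.6% in cKO and 34.6% in control. In Myorg (chr4:41499123-41499538), a glycosidase gene mutated in human brain calcification, the level was 21.5% in cKO and 48.6% in control. In Hic1 (chr11:75166677-75167013), a transcriptional repressor, 75 CG cytosines had 14.2% in cKO and 28.5% in control. Agtr1a (chr13:30352045-30352410), the angiotensin II receptor, had 25.4% in cKO and 77.2% in control, a difference of -51.9 points over 32 CG cytosines. Tmprss11d (a serine protease) had 26.9% in cKO and 59.9% in control, Dupd1 (a dual-specificity phosphatase) 50.3% in cKO and 87.3% in control, and Pced1b 35.1% in cKO and 71.0% in control. All of these 8 except Agtr1a and Dupd1 had control levels below the 76.1% median of all losses deep in genes.

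Among regions with at least 10 CG cytosines, the largest drop was in the Hedgehog effector gene Gli3, at -58.0 points. Those in Ccdc192, Pxylp1 and Ltbp2 followed at -55.5, -54.5 and -53.8 points. In Mrc2 (chr11:105314354-105314543), an endocytic collagen receptor, the level was 33.2% in cKO and 86.0% in control. In Palld (chr8:61865621-61865799), an actin-bundling protein, 14 CG cytosines had 18.4% in cKO and 71.0% in control. In Cdh26 (chr2:178451179-178451300), a cadherin, the level was 25.9% in cKO and 78.2% in control, and in Veph1 (chr3:66102507-66102823) it was 29.3% in cKO and 81.6% in control. All 8 rest on 10 to 14 CG cytosines.

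At least 1 such loss was held by 3106 of the 16674 autosomal protein-coding genes with room for a region more than 2 kb from any gene end (18.6%). Among the 2312 genes of 100 kb or more the share was 53.5% (1237 genes). The share was larger in longer genes, at 6.84% for genes under 25 kb, 16.8% at 25 to 50 kb, 28.99% at 50 to 100 kb, 45.6% at 100 to 200 kb, 62.1% at 200 to 400 kb and 80.6% at 800 kb or more. These shares are the background for the counts of genes below. The number of losses per Mb of gene body more than 2 kb from gene ends was flatter, at 11.5 in genes under 25 kb, 14.9 in genes of 100 to 200 kb and 8.98 in genes of 800 kb or more. Over all genes it was 12.4 per Mb. A single loss was held by 1329 genes (42.8% of those with any), whereas 249 genes with at least 10 losses held 4425 of them (38.8%).

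Tenm3, a teneurin that acts in synaptic adhesion and wiring, held 57 losses over 1297 kb, with medians of 43.5% in cKO and 74.6% in control. Wwox, an oxidoreductase gene at a fragile site, held 56, and Lrmda, a gene of melanocyte differentiation, 55. Prdm16, a zinc finger transcription factor of neural progenitors and brown fat, held 50 in a much shorter gene of 321 kb, with medians of 43.1% in cKO and 77.8% in control. Zfhx3, a homeodomain transcription factor, also held 50, and Rad51b, a recombination gene, 48. The cadherins Cdh13 and Cdh4 held 47 and 43. Within each of these 8 genes the differences were spread widely: in Tenm3 they ran from -49.6 to -11.6 points and in Prdm16 from -43.2 to -17.8. The medians of the 8 genes lay between -34.6 (Rad51b) and -28.5 (Tenm3), near the -30.1 of the whole class.

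Per length the order was different. Of genes of at least 50 kb, Tspan18, a tetraspanin gene, had the highest number, 26 losses or 20.2 per 100 kb, with medians of 46.6% in cKO and 80.6% in control. Parvb, a focal adhesion protein, followed with 18.8 per 100 kb (15 losses), then the zinc finger gene Tshz1 and the membrane protein gene Tmem51 with 18.04 and 18.02, and Cfap77, a ciliary protein gene, with 17.8. Prdm16 reached 15.8 per 100 kb, the highest of the 945 genes of 200 kb or more. The median of those 945 was 0.452 per 100 kb, and 331 of them held none.

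**Figure D2:**
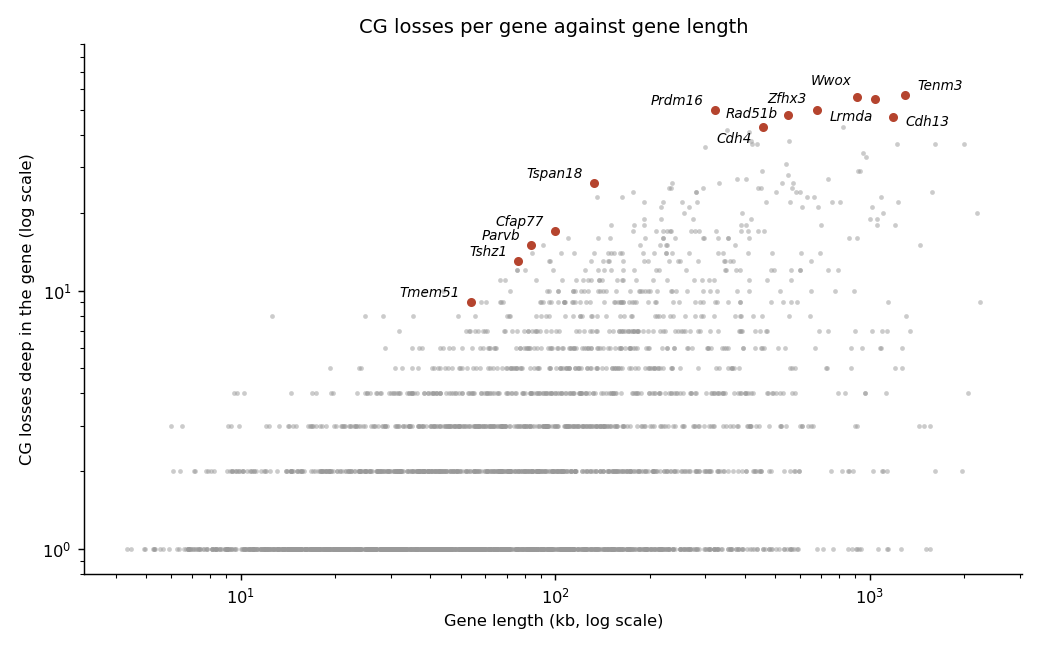
Number of CG losses deep in a gene (y axis, log scale) against gene length in kb (x axis, log scale) for the 3106 genes with at least 1. The 8 genes with the most losses and the 5 with the most per 100 kb are in red and named. Tenm3 holds 57 in 1297 kb and Prdm16 50 in 321 kb.

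Losses in a gene often lay close together. Between neighbouring losses of a gene there were 8303 gaps, with a median of 8.26 kb (quartiles 1.48 to 23.7 kb), and 3371 of them (40.6%) were under 5 kb. At least 5 losses fell within 10 kb in 96 of the 3106 genes with a loss. No such gaps are given for other kinds of region, so these values have no background. The densest stretch was in Prdm16, with 9 losses in 8.90 kb, at levels of 20.8 to 63.0% in cKO and 50.3 to 85.4% in control. In Gas2l3, a cytoskeletal linker gene, 8 losses lay in 4.14 kb, with 16.1 to 73.4% in cKO and 58.6 to 93.4% in control. In Tnfaip2 8 lay in 4.23 kb, with 13.6 to 50.4% in cKO and 24.2 to 77.3% in control. Ror2, Ptpn14 and Celsr1 also had 8 within 10 kb.

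Genes of developmental signalling pathways had more losses per Mb than all genes together. For Wnt signalling, 23 of 46 genes held a loss, at 55.6 per Mb of deep gene body, against 12.4 per Mb over all genes. That is 50% of the list, whose median gene has 40.5 kb, against 18.6% of all genes and 16.8% of genes of 25 to 50 kb. Ror2, a receptor tyrosine kinase for Wnt ligands, held 24 losses with medians of 41.1% in cKO and 73.8% in control, and Tcf7l1, a nuclear effector of the pathway, held 23 (45.5% in cKO, 82.1% in control). Of Notch pathway genes, 9 of 23 held a loss (54.9 per Mb). Maml3, a coactivator of the Notch intracellular domain, held 38 of the 90 losses of that list, and the receptor gene Notch2 16. Without Maml3 the list had 42.5 per Mb. Of Hedgehog pathway genes, 8 of 17 held a loss (45.1 per Mb), with 22 in Gli2 and 21 in Gli3, both transcription factors at the end of the pathway. In TGF-beta and BMP signalling the count was 14 of 37 (23.8 per Mb), led by the inhibitory Smad gene Smad6 with 11 losses. By the length class of the median gene, the Notch list had 39.1%, against 16.8% of all genes of 25 to 50 kb. The Hedgehog list had 47.1% and the TGF-beta and BMP list 37.8%, against 28.99% of genes of 50 to 100 kb. These lists were written with earlier results of the same data known, and their counts were not tested against other genes.

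Transcription factors of other lineages held losses in 33 of 59 genes (37.5 per Mb). That is 55.9% of the list, against 28.99% of all genes of 50 to 100 kb, the class of its median length. Prdm16 had 50 of their 235 losses, and Mecom, a related zinc finger gene, 22. Markers of cells that do not use the Nex driver were also among the genes with losses. The oligodendrocyte lineage list had 7 of 16 genes (41.4 per Mb), with 18 losses in Tcf7l2, also a Wnt effector. Microglia markers had 6 of 15 (33.2 per Mb), 14 of the 21 losses being in Runx1, a blood and microglia transcription factor. Endothelial and mural markers had 11 of 18 (31.3 per Mb), with 9 in the VEGF receptor gene Flt1. Astrocyte markers had 7 of 17 (30.3 per Mb), 21 of the 33 losses being in Gli3, which the Hedgehog list also holds. Without Gli3 that list had 14.5 per Mb, and the microglia list without Runx1 had 17.0. Gfap, the intermediate filament of astrocytes, held 3 losses in 9.87 kb, with medians of 52.9% in cKO and 93.8% in control. Their differences had a median of only -24.4 points, with a range of -40.9 to -20.4. The lowest control level among them was 40.3%. Interneuron identity genes had 10 of 25 (20.8 per Mb), with 26 losses in Sox6 and 17 in Reln, the gene of the secreted protein reelin. By the length class of the median gene, the oligodendrocyte (43.75%) and endothelial lists (61.1%) stand against 16.8% of genes of 25 to 50 kb. The microglia (40%), astrocyte (41.2%) and interneuron lists (40%) stand against 6.84% of genes under 25 kb. These shares were not tested.

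Lists of the cortical excitatory neurons differed between layers. Of deep layer identity genes 15 of 22 held a loss (14.7 per Mb, and 11.1 without Sox5, against 12.4 over all genes). Of the 96 losses of that list, Sox5, a transcription factor of corticofugal neurons, held 34 (44.3% in cKO, 77.1% in control). Nfia, a nuclear factor of the same list, held 31 (40.7% in cKO, 73.7% in control). Most losses of the list thus lay in these genes, and the number per Mb without both is not given. Of upper layer identity genes 6 of 19 held one (31.6%, against 68.2% of the deep layer list and 45.6% of all genes of 100 to 200 kb, the range of both lists' median lengths), and these carried only 10 losses (2.52 per Mb), 4 of them in the adhesion gene Mdga1 and 2 in the semaphorin receptor gene Plxna4. The 4 losses in Mdga1 had a median of 33.0% in cKO and 71.8% in control. Without Mdga1 the upper layer list had 1.53 per Mb. The difference between the layers was not tested.

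Genes of the synapse had fewer losses per Mb than all genes together, though not all of their lists had fewer genes with a loss than genes of like length. Glutamate and GABA receptor genes had a loss in 14 of 41 genes (4.21 per Mb), voltage-gated channel genes in 22 of 47 (4.78 per Mb), and presynaptic release and postsynaptic scaffold genes in 10 of 37 (3.49 per Mb). These are 34.1%, 46.8% and 27.0% of lists whose median lengths lie between 100 and 200 kb, where 45.6% of all genes held a loss, so the channel genes were at that background. Synaptic adhesion genes had 15 of 45 (5.57 per Mb), where 57 of the 128 losses were in Tenm3, and 3.27 per Mb without it. The median length of the synaptic adhesion genes is 313 kb, and their 33.3% with a loss stands against 62.1% for all genes of 200 to 400 kb. Within these lists Cacna2d2, a calcium channel subunit, held 13 losses, the scaffold gene Magi1 21 and Tenm2, a second teneurin, 22. Cadherins had 17 of 39 (15.9 per Mb, and 43.6% of the list, near the 45.6% of genes of 100 to 200 kb). Axon guidance genes had 30 of 44 (68.2%), with 21 in Robo1 and 12 in Ntn1. Their 10.2 per Mb lay below the 12.4 of all genes. Genes of collagens and laminins had 33 of 49 (67.3%, and 22.3 per Mb), with 19 in Col25a1 and 16 in Col23a1. The median lengths of the axon guidance and the collagen and laminin lists also lie between 100 and 200 kb. Very large genes of the fragile-site type had 20 of 25 (12.8 per Mb), a share near the 80.6% of all genes of 800 kb or more. Imprinted genes had 16 of 31 (17.3 per Mb), led by Ddc with 14 and Kcnq1 with 11. That is 51.6%, against 28.99% of genes of 50 to 100 kb, the class of their median length.

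For genes that act on these marks themselves the counts were small. Of 24 genes of H3K36 writers, erasers and readers, Kdm2b alone had losses, 3 in number (50.7% in cKO, 78.2% in control at the median). That is 4.17% of the list, whose median length is 43.3 kb, against 16.8% of all genes of 25 to 50 kb. Of 19 genes of DNA methylation writers, erasers and readers, 3 had 1 loss each, a share of 15.8% that is near the same 16.8%. That in Dnmt3b, a de novo methyltransferase, had 40.8% in cKO and 67.3% in control, and that in Tet3, a dioxygenase of methylcytosine, 40.03% in cKO and 64.4% in control. None of 19 activity-regulated genes with room held a loss, over 0.394 Mb of deep gene body. Their median length is 14.9 kb, and 6.84% of all genes under 25 kb held a loss.

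**Figure D3:**
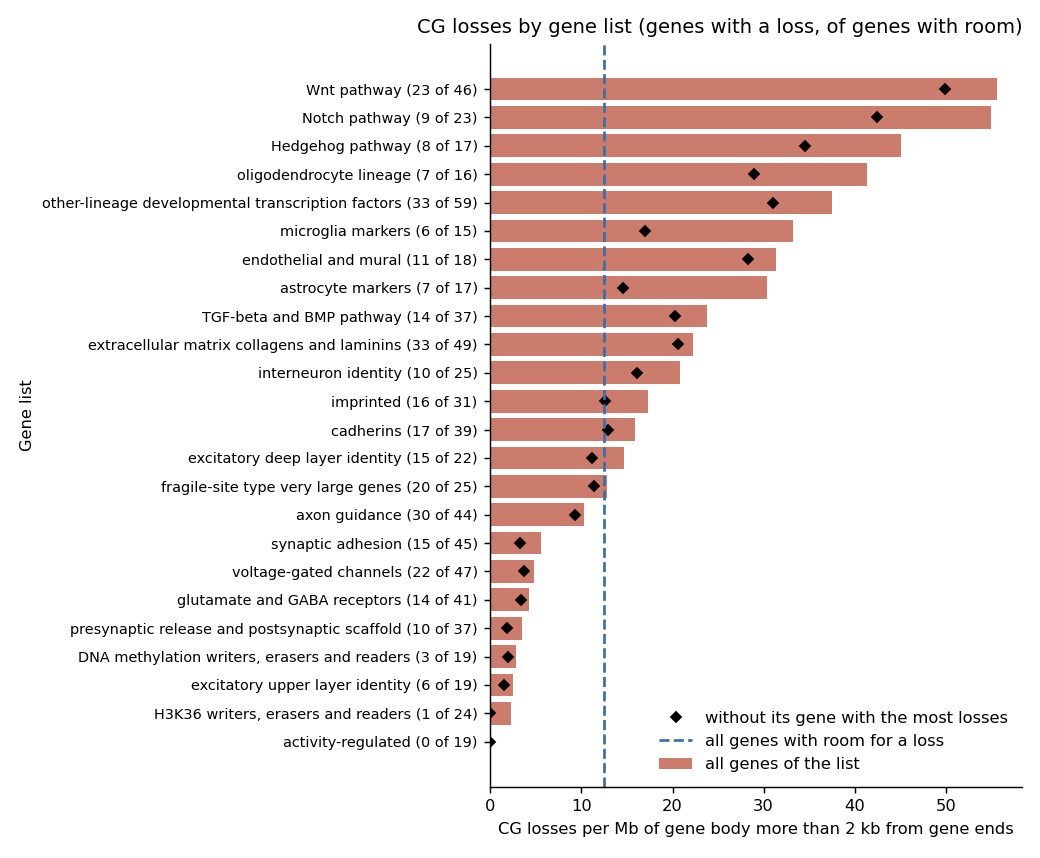
CG losses per Mb of gene body more than 2 kb from gene ends (x axis) for 24 gene lists (y axis), with the number of genes that hold a loss of those with room. Bars give the whole list, diamonds the list without its gene with the most losses, and the dashed line all genes with room (12.4). Wnt, Notch and Hedgehog genes have 45.1 to 55.6 per Mb, and lists of the synapse 3.49 to 5.57.

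Several of the longest genes held no loss at all, although most genes of such length did. Of the 93 genes of 800 kb or more, 75 (80.6%) held a loss, among them Lsamp (2197 kb) with 20. Ptprd, a receptor phosphatase of the synapse, has 2271 kb and held 0, as did Csmd1 (1643 kb), the splicing factor gene Rbfox1 (1528 kb) and Lrrc4c (1314 kb), a postsynaptic adhesion gene. Nrg3, a neuregulin, and Astn2, an astrotactin, also held 0. All of these held CHH regions that were higher in cKO: 6 in Ptprd, 11 in Csmd1, 19 in Rbfox1, 1 in Lrrc4c, 9 in Nrg3 and 11 in Astn2. CHH regions lower in cKO numbered 2 in Ptprd, 2 in Rbfox1 and 1 in Astn2, and 0 in Csmd1, Lrrc4c and Nrg3. These genes are among the longest with none and were chosen after their values were seen. CHH gains were not confined to genes without a CG loss: Tenm2 held 19 and Camta1 21, each beside 22 CG losses, whereas Lrmda held 0. The share of all long genes with a CHH gain is not given here.

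Losses of CHH methylation often lay beside the CG losses. A CHH region lower in cKO overlapped 477 of the 11412 losses (4.18%), and one lay within 1 kb of 2217 (19.4%, exact Clopper-Pearson 95% interval 18.7 to 20.2% for counting error only). A CHH region higher in cKO lay within 1 kb of 14 (0.123%), and a CG region higher in cKO within 1 kb of 10. Most of the neighbours counted within 1 kb were thus lower in cKO too. CG gains were few to begin with, since 44244 of the 46832 autosomal CG regions were losses. In genes of 100 kb or more with known strand, there were 5006 CHH losses and 3522 CHH gains more than 2 kb from gene ends. The excess of neighbours of like direction was not tested against these numbers. The 2206 CHH regions concerned had medians of 1.10% in cKO and 5.69% in control. CG losses with such a neighbour had a median difference of -31.9 points, and those without had -29.6. For other CG losses under 500 bp the share with a CHH loss within 1 kb was 19.1% at gene ends, 22.1% up to 100 kb from genes and 22.5% beyond, and for CG losses of 500 bp or more deep in genes 38.8%. For CG gains deep in genes it was 0.145%, while 3.23% of them had a CHH gain within 1 kb. Both contexts were measured in the same libraries, and the shares were not tested against each other.

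Counting the CHH losses within 1 kb of a CG loss, Prdm16 had the most, with 36, then Wwox with 23 and Alk with 21. In Prdm16 33 of the 50 losses had such a neighbour, and the gene held 83 CHH losses and 0 CHH gains. In Wwox it was 19 of 56, and in the receptor tyrosine kinase gene Alk 13 of 27. Counted by losses with a neighbour the order is different, since Lrmda had 20 of 55. Over all genes with a CG loss, 1603 (51.6%) held more CHH losses than CHH gains, and these genes carried 8171 CG losses (71.6%). A further 626 genes held more CHH gains, with 1626 CG losses (14.2%), and 793 held no CHH region. Of genes with at least 10 CG losses, 223 had more CHH losses and 21 more CHH gains. No such shares are given for genes without a CG loss, so these counts have no background and were not tested.

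**Figure D4:**
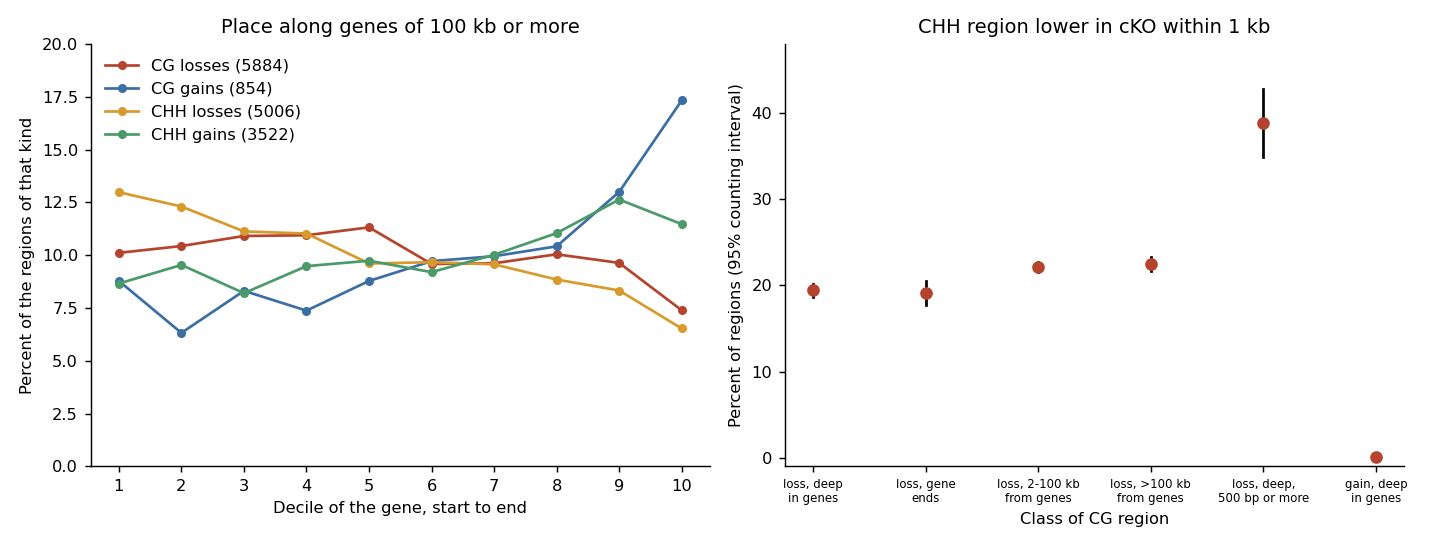
Left, percent of the regions of each kind (y axis) by decile of the gene from start to end (x axis), for genes of 100 kb or more with known strand. Right, percent of the regions of 6 classes of CG region with a CHH region lower in cKO within 1 kb, with 95% counting intervals (bars). CG losses are spread evenly except for 7.39% in the last decile, where CG gains have 17.3%. The share with a CHH loss nearby is 19.4% for CG losses deep in genes and 0.145% for CG gains.

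Along genes the losses were spread almost evenly, with fewer near the 3′ end. In genes of 100 kb or more with known strand (1772 of 2312), 5884 losses had a median relative position of 0.463 (0 is the start, 1 the end). Each of the first 5 deciles held 10.1 to 11.3% of them, and the last decile 7.39%. CG gains deep in the same genes leaned to the 3′ end, with 17.3% of 854 in the last decile and a median position of 0.607. CHH losses leaned to the start, with 12.98% of 5006 in the first decile and 6.53% in the last. CG and CHH regions within 2 kb of a gene end were all left out. The first and last deciles are therefore both short of each kind, most of all in the shorter of these genes. The part of this in the 7.39% of the last decile was not tested.

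CG gains also occurred in 310 of the 3106 genes with a loss (9.98%), and in 1184 of the 13568 genes with room but no loss (8.73%). Among genes of 100 kb or more the shares were 18.7% with a loss (231 of 1237) and 33.2% without (357 of 1075). The genes below were chosen after their values were seen, as the 8 with the most losses beside a gain and a known strand. In Tenm3 the 57 losses lay 35.3 to 1169 kb from the start, and the 3 CG gains 1161 to 1288 kb from it, close to the 3′ end, the first of them before the last loss. Its 31 CHH losses lay at 47.3 to 938 kb and its 8 CHH gains at 999 to 1279 kb, with no overlap of these ranges. In Sox5 the 34 losses lay at 33.6 to 736 kb with a median of 319 kb, and the 4 CG gains at 577 to 941 kb, so the ranges of CG overlapped. Its 15 CHH losses lay at 28.0 to 485 kb and its 5 CHH gains at 552 to 950 kb, without overlap. In Grip1, a scaffold protein of glutamate receptors, the 23 losses lay at 23.1 to 582 kb and the 3 gains at 533 to 586 kb, again overlapping. This gene held 1 CHH loss, at 31.0 kb, and 13 CHH gains at 373 to 620 kb. Nfia had 11 CHH losses at 45.6 to 348 kb and a single CHH gain at 470 kb, while its only CG gain lay at 199.6 kb among the losses. In Gse1 both CG gains, at 320 and 341 kb, lay beyond the last of its 42 losses at 312 kb. The other 3 genes went against such an order. Zfhx3 had its CG gain at 501 kb, amid its losses. In Tshz2, a zinc finger gene, all 3 gains, at 151 to 286 kb, lay amid its 25 losses, at 4.58 to 371 kb. Of the 2 gains of Thsd4, the gain at 13.1 kb lay before the first of its 38 losses and that at 189.6 kb amid them. Prdm16 and Lrmda held 0 gains in either context.

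**Figure D5:**
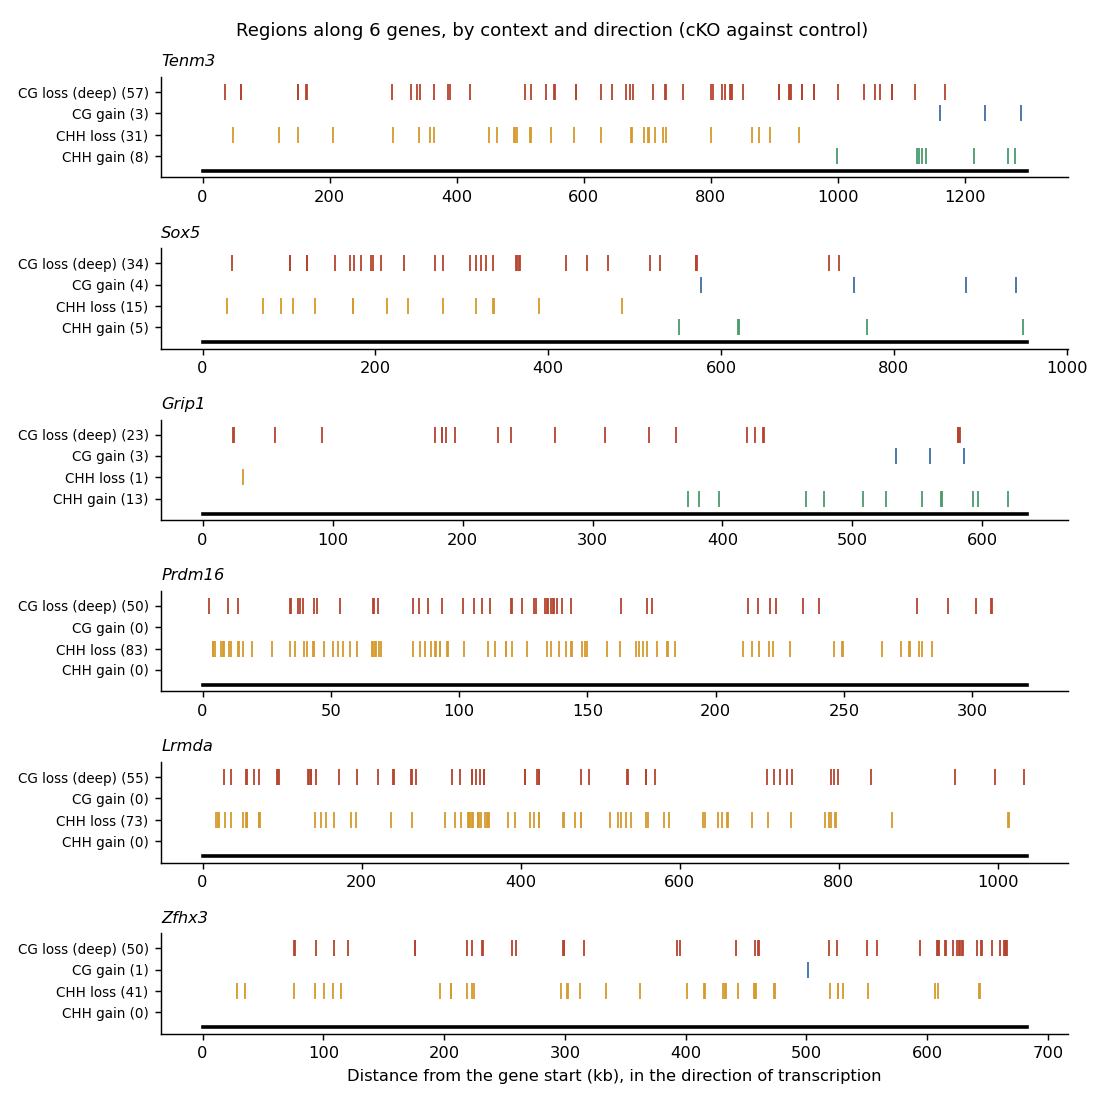
Position of CG losses deep in the gene, CG gains, CHH losses and CHH gains (rows, with their number) along 6 genes, in kb from the gene start in the direction of transcription (x axis). Each tick is a region and the black line the gene. In Tenm3, Sox5 and Grip1 the gains lie toward the 3′ end, with all CHH gains beyond the last CHH loss, and Prdm16 and Lrmda have losses only.

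Losses on a transcript start inside a gene were a small part of all. Of the 5276 RefSeq promoter windows that lie more than 2 kb from the ends of protein-coding genes, 108 (2.05%) were overlapped by 106 losses, which is 0.929% of the losses. The windows make up 0.163% of the bases deep inside genes, or 0.226% when widened on each side to allow for the median length of a loss. A further count gave 381 losses (3.34%) within 1 kb of such a window. The windows were those of 51 protein-coding genes (55 windows) and 53 windows of other genes. Losses on windows had medians of 31.5% in cKO and 65.9% in control and 13 CG cytosines, so they were lower in both groups and held more CG cytosines than all losses deep in genes (median 9), while their median difference of -29.4 points was close to the -30.1 of all. The overlapped windows had a median of 7 CG dinucleotides (quartiles 5 to 9.25), against 5 (quartiles 3 to 11) for all deep windows and 7 (quartiles 3 to 21) for all autosomal windows. The Abl1 and Fam110a windows printed above, with 23 and 14, are thus at the dense end. The GC box was in 24.1% of the overlapped windows, the CCAAT box in 26.9% (33.5% of all deep windows) and the TATA box in 13.9% (13.3%). The cyclic AMP response element TGACGTCA was in 0.926% (1.06%) and the AP-1 site TGANTCA in 5.56% (8.70%), all searched on both strands. These shares were not tested.

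Non-coding genes inside the host genes were also covered. A loss overlapped a lncRNA gene in 787 cases (6.90%), where lncRNA genes make up 4.35% of the bases deep inside genes, and a miRNA gene in 5. In 2 cases with a sequence at hand the loss contained the whole hairpin, so the mature arms are shown, as RefSeq gives them on GRCm38.p6, with the seed (bases 2 to 8) in capitals.
mmu-miR-3067-5p (chr12:81166165-81166187, + strand): aGUUCUCAggcccgcuguggugu
mmu-miR-3067-3p (chr12:81166201-81166223, + strand): cCAAGCGGcugcccugggagagg
mmu-miR-3104-5p (chr7:141992180-141992204, + strand): uAGGGGGCaggagccggagcccucu
mmu-miR-3104-3p (chr7:141992218-141992240, + strand): aCGCUCUGcuuugcucccccaga

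The loss over Mir3067 (chr12:81166081-81166295), inside Smoc1, a secreted matricellular protein gene, had 42.6% in cKO and 72.6% in control over 14 CG cytosines. The loss over Mir3104 (chr7:141992131-141992261), inside the polarity kinase gene Brsk2, had 68.2% in cKO and 85.7% in control over 16. The seeds of the 4 arms differ from each other. Mir1190 in Ccdc88c and Mir1962 in Ptpre were overlapped in part.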

How the data were processed

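Whole-genome bisulfite libraries of somatosensory cortex (2 cKO and 2 control) were processed by the submitters, whose processing notes name CASAVA, Bowtie2 and mm10, with no version or role. The region caller and its thresholds were not given in the sources used here. The authors deposited each region's mean level per group as a fraction from 0 to 1, which the text gives in percent. The difference is cKO minus control on that scale, and the deposited area statistic is a score used only to rank or filter. The deposited number of cytosines is a count over both strands.

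Gene bodies came from RefSeq (GRCm38.p6, the assembly of mm10), without entries in the first 3 Mb of a chromosome, which are gaps. A loss belonged to the shortest protein-coding gene that it overlapped, and 67 overlapped several. Sequences and strands came from RefSeq promoter and miRNA tables. Exons, introns and repeats were not analysed here. Overlaps and medians were computed with Python 3.11.15, pandas 2.3.3, numpy 2.4.6 and scipy 1.17.1, and the interval code was tested on simulated data.

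The members, the 24 lists (764 of 784 genes matched) and the rule for named genes were chosen with earlier results of these data known. That rule took, passing over predicted models, the 8 losses with the largest area statistic, the 8 largest drops over at least 10 cytosines, the 8 genes with the most losses, the 5 with the most per 100 kb among genes of at least 50 kb, the 2 genes with the most losses from each list, and the 3 with the most CHH losses within 1 kb. A result that the rule takes is not reported here. The rule's minimum of 10 CpGs was applied to the deposited number, which counts both strands. No test over libraries could be made from group means. Alternatives changed the margin, the length limit, the size, the number of cytosines and the gene models.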

Additional observations from a re-analysis of the deposited data

How the results depend on the processing

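The count of losses and of genes and the median difference were recomputed under 9 alternatives that could change them. Of the 27 values, 17 stayed within 1.5 times the count or within the interval of the median. That interval counts regions as if they were independent and does not measure the spread among libraries. With margins of 5 and 1 kb, or with predicted gene models left out, none of the 3 changed in this sense. Without a length limit the median difference was -30.4 points, and with lengths under 250 bp it was -29.3. With an absolute difference of at least 0.3 (30 points) 5754 losses were left, with a median of -34.6 points, which this filter moves by construction. With an area statistic at or above the members' median 5706 were left, a number that this limit fixes. With at least 10 CG cytosines 5657 were left, with a median of -29.2 points. With at least 20, an alternative chosen after seeing the data because the number counts both strands, 1010 losses in 679 genes were left, with a median of -29.4 points. These counts fall because the filters keep fewer regions. The share of losses with a CHH loss within 1 kb ranged from 17.98 to 23.3% over the same alternatives. It was 4.18% for overlap and 37.6% within 5 kb. For the 24 lists, 181 of 216 shares stayed within the interval of the full set, and for the 8 genes with the most losses 47 of 72 counts stayed within 1.5 times. Every alternative kept only regions lower in cKO, so no value could change direction. No paired analysis was possible because the table gives group means only, and leaving out a replicate was not run for the same reason. Requiring regions wholly inside a gene returns the same regions by construction and is not counted. The shares in introns and in repeats were not run. Unknown depth limits every level here.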

Other observations

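The losses deep in genes were found on every autosome. Their number per Mb of gene body more than 2 kb from gene ends was lowest on chromosome 13 (9.87) and highest on chromosome 8 (16.6), followed by chromosome 19 (15.5). On chromosome 8, Tenm3 held 57, Wwox 56, Zfhx3 50 and Cdh13 47 of its 792 losses. The median difference varied little between chromosomes, with -29.2 points on chromosome 8 and -31.0 on chromosome 6.

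Of the 21 genes with at least 10 CG losses and more CHH gains than CHH losses, the 4 described here were picked after their values were seen. Tenm2 held 22 CG losses, 19 CHH gains and 1 CHH loss. Camta1, a calcium-dependent transcription activator, held 22 CG losses, 21 CHH gains and 13 CHH losses. Lsamp, an adhesion gene of the limbic system, held 20 CG losses, 8 CHH gains and 5 CHH losses, and Mast4, a kinase gene, held 12 CG losses, 9 CHH gains and 1 CHH loss. In Tenm2, Lsamp and Mast4 none of the CG losses had a CHH loss within 1 kb, while 4 of the 22 in Camta1 did.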
